A study of Mus musculus with 3 samples.

Results

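Mapt, which encodes tau, and 7 other genes of microtubule-associated proteins (Map2, Map4, Map1a, Map1b, Map6, Map7d1 and Tppp) were followed in hippocampal RNA. The 8 genes were taken by name from a table of 54532 genes, in which each name occurred once. The hippocampi came from C57BL/6 mice, 10 months old, of 3 genotypes with 1 RNA-seq library each: WT, the tau transgenic line PS19, and PS19 heterozygous for a Zbp1 deficiency (labelled Zbp1+- and written PS19 Zbp1+/- here). PS19 mice carry a mutant human tau transgene under the mouse Prnp promoter and serve as a model of tau pathology; both PS19 groups share it, and Mapt here is the mouse gene. Zbp1 encodes a sensor of Z-form nucleic acids. Whether animals were pooled for a library is not given in the sources used here. With 1 library a genotype no difference has a replicate check, and the intervals given are exact 95% intervals that cover counting error only.

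Microtubules are hollow polymers of alpha and beta tubulin that carry transport along axons and dendrites. Structural microtubule-associated proteins bind along the polymer and set its stability and spacing. In neurons tau is enriched in axons and MAP2 in cell bodies and dendrites, and in tauopathies tau leaves the microtubule and aggregates.

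The 8 genes belong to 5 families. Tau, MAP2 and MAP4 bind microtubules through related repeats near the carboxyl terminus. The longest identical run between the coding sequences was 11 bases for Mapt and Map2, 12 for Mapt and Map4, and 12 for Map2 and Map4.

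MAP1A and MAP1B are large proteins, each cut into a heavy and a light chain, that bind microtubules without tau-type repeats. Their genes held the longest identical run between any of the 8 coding sequences, 26 bases, in capitals here with 12 bases on each side. It lies at chr2:121299506-121299555 on the plus strand for Map1a and at chr13:99435409-99435458 on the minus strand for Map1b, in coding exons.
Map1a: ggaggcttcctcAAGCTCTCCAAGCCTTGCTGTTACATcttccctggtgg
Map1b: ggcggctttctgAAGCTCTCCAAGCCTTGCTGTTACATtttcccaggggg
MAP6, also called STOP, protects microtubules from cold and drugs. MAP7D1 belongs to the MAP7 family, which recruits kinesin-1. TPPP promotes tubulin polymerisation and is abundant in myelinating oligodendrocytes. No other gene's transcript matched Mapt, Map2, Map1b, Map6, Map7d1 or Tppp over 200 bases at 90% identity or more. Map4 had such matches to 37 genes, none longer than 212 bases, and Map1a matched Ppip5k1 over 272 bases where the 2 genes overlap on opposite strands.

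The PS19 Zbp1+/- library differed from the others in more than the 8 genes. Reads of Zbp1 itself numbered 5 (WT), 91 (PS19) and 0 (PS19 Zbp1+/-). With 5 reads in WT, 0 reads cannot tell 1 remaining allele at the WT level from none. A count of 0 allows an FPKM of up to 0.0537, far below the 1.49 of PS19, the other transgenic library. Which Zbp1 alleles the library carried was not tested. Reads recovered from the table summed to between 16400328 and 17109734 in a library. The library size behind the FPKM of PS19 Zbp1+/- was 15826984, below its own 17109734 reads, while those of WT and PS19 were above theirs. PS19 Zbp1+/- held reads for 21408 genes against 24741 and 25397 in WT and PS19. Genes with exactly 1 read numbered 882 in PS19 Zbp1+/-, against 2467 and 2465. The same library had reads of the Y-linked Ddx3y, Eif2s3y, Kdm5d and Uty and 0 of Xist, the reverse of both other libraries. Sex and these other library differences therefore cannot be told apart from Zbp1 genotype in its comparisons.

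Levels are given as FPKM, a count of sequenced fragments divided by gene length and library size. Mouse Mapt (ENSMUSG00000018411; chr11:104231390-104332090, plus strand) had 63.0, 65.1 and 65.3 FPKM in WT, PS19 and PS19 Zbp1+/-, from 8191, 8473 and 7788 reads. The 3 levels lay close together. The read ratio, corrected for library size, was 1.03 for PS19 over WT (1.001 to 1.064) and 1.04 for PS19 Zbp1+/- over WT (1.005 to 1.069), both at the edge of counting error. Against PS19, that of PS19 Zbp1+/- was 1.0 (0.973 to 1.04). These ratios are in the deposited scale and moved with the scaling. The log2 difference of Mapt in PS19 Zbp1+/- from PS19 was 0.01 as deposited, -0.28 after rescaling the libraries to the same sum and -0.18 per total reads. Prnp, whose promoter drives the transgene, stood at 405, 659 and 512 FPKM in WT, PS19 and PS19 Zbp1+/-. How reads of the human transgene were aligned was not tested.

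Map2 (ENSMUSG00000015222; chr1:66175273-66442583, plus strand) had 49.6 FPKM in WT and 48.6 in PS19, against 66.9 in PS19 Zbp1+/-. WT and PS19 were close, with a ratio of 0.979 (0.957 to 1.0), and PS19 Zbp1+/- was above both. Its ratio to PS19 was 1.38 (1.35 to 1.41), so the FPKM of Map2 relative to that of Mapt went from 0.746 in PS19 to 1.02 in PS19 Zbp1+/-. Map4 (ENSMUSG00000032479; chr9:109931460-110083955, plus strand), the most widely expressed gene of the tau family, had an FPKM of 40.2, 49.0 and 43.4 in WT, PS19 and PS19 Zbp1+/-. PS19 was highest, at a ratio of 1.22 to WT (1.19 to 1.25), and PS19 Zbp1+/- lay between, at 0.886 of PS19 (0.864 to 0.91). That place between turned with the scaling. The log2 difference of Map4 in PS19 Zbp1+/- from WT was 0.11 as deposited, and -0.05 both after rescaling the libraries to the same sum and per total reads. Within the tau family, then, Map2 was highest in PS19 Zbp1+/- and Map4 in PS19. In the deposited scale Mapt lay within counting error between those 2 libraries.

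Map1a (ENSMUSG00000027254; chr2:121289600-121310832, plus strand) had 84.9 FPKM in WT, then 108 in PS19, then 164 in PS19 Zbp1+/-. Map1b (ENSMUSG00000052727; chr13:99421446-99516540, minus strand), the form that prevails in developing neurons, had 57.3, 66.0 and 97.1. Both genes had the order WT, PS19, PS19 Zbp1+/-. Map1a was 1.28 times WT in PS19 (1.25 to 1.30) and in PS19 Zbp1+/- 1.52 times PS19 (1.49 to 1.54), from 17812, 22769 and 31588 reads. The ratios of Map1b were 1.15 (1.13 to 1.18) and 1.47 (1.44 to 1.5). The FPKM of Map1a over that of Map1b was 1.48, 1.64 and 1.69 in the 3 libraries.

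Map6 (ENSMUSG00000055407; chr7:99267447-99337137, plus strand) was the weakest of the 8, with 11.3 FPKM in WT and 10.3 in PS19, against 21.4 in PS19 Zbp1+/-. The last stood apart from the other pair of libraries, at 2.08 times PS19 (1.96 to 2.21) and 1.90 times WT (1.79 to 2.01), while PS19 was 0.91 of WT (0.851 to 0.974). Map7d1 (ENSMUSG00000028849; chr4:126232167-126256343, minus strand) had an FPKM of 74.5, 82.8 and 107 in WT, PS19 and PS19 Zbp1+/-. It was highest in PS19 Zbp1+/-, at 1.29 times PS19 (1.24 to 1.34). Tppp (ENSMUSG00000021573; chr13:74009407-74035753, plus strand) had an FPKM of 80.9, 82.5 and 87.9. Its ratios were 1.02 for PS19 over WT (0.986 to 1.05) and 1.07 against PS19 for PS19 Zbp1+/- (1.03 to 1.10), the latter beyond counting error in the deposited scale. That direction turned with the scaling, since the log2 difference of Tppp from PS19 was 0.09 as deposited, -0.19 after rescaling the libraries to the same sum and -0.09 per total reads.

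**Figure D1:**
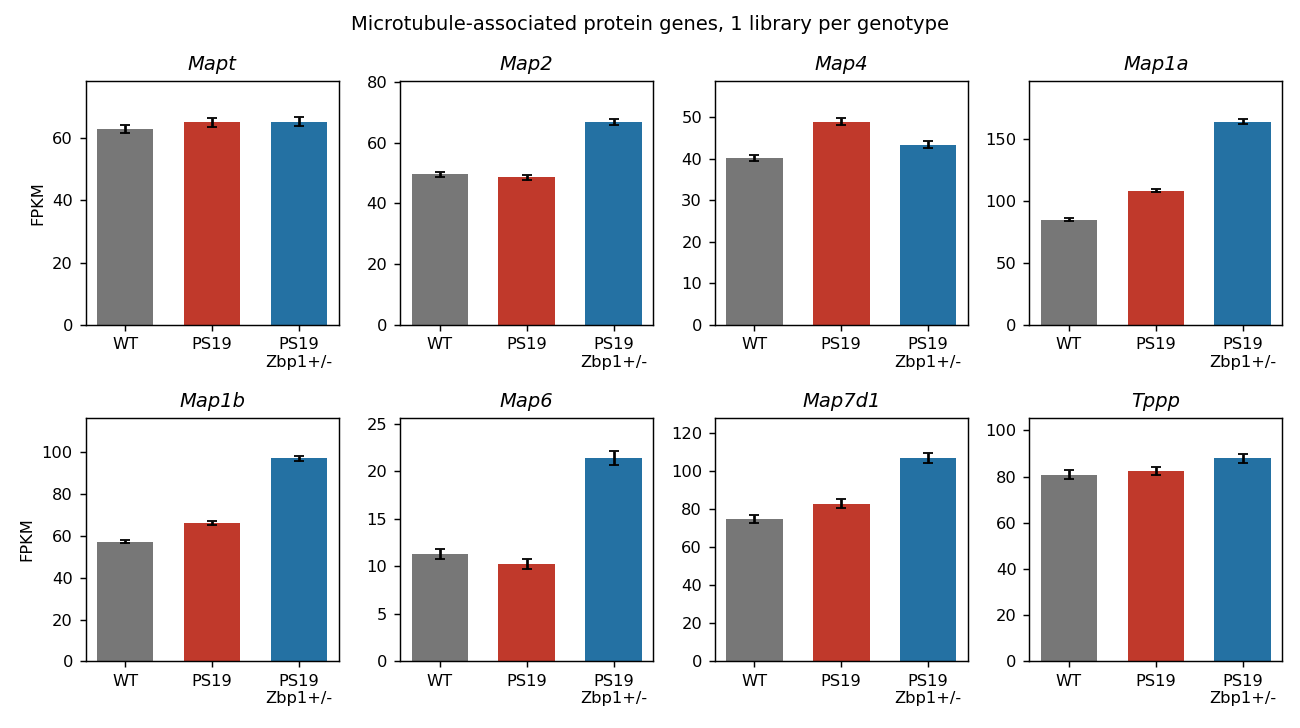
FPKM of the 8 genes (y axis, from 0, 1 panel a gene) in the WT, PS19 and PS19 Zbp1+/- libraries; bars are single libraries and error bars exact 95% Poisson intervals of the reads. Mapt runs from 63.0 to 65.3, while Map6 reaches 21.4 in PS19 Zbp1+/- against 10.3 in PS19.

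Ordered by FPKM within WT, the genes ran Map1a, Tppp, Map7d1, Mapt, Map1b, Map2, Map4 and Map6, and no neighbours had overlapping counting intervals. In PS19 the intervals of 3 neighbouring pairs overlapped: Map7d1 with Tppp, Map1b with Mapt, and Map4 with Map2. For PS19 Zbp1+/- the order was Map1a, Map7d1, Map1b, Tppp, Map2, Mapt, Map4 and Map6, and Map2 with Mapt was the only pair of neighbours to overlap. The order depends on the length used. The table divides by the summed length of all annotated exons, 16449 bases for Map2 and 15143 for Map4, although their longest single transcripts have 6258 and 6091 bases. Per kilobase of the longest transcript, Map2 would lead the WT library at 130 on the FPKM scale, ahead of Map4 at 100.1 and Mapt at 90.4, and Map1a would have 87.3. Comparisons between libraries do not depend on this length.

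Differences between libraries were also taken as differences of log2(FPKM + 1), with a call at 0.5 log2 units or more (1.41-fold on that scale), and were set beside every protein-coding gene that reached 1 FPKM in one of the 2 libraries. Between PS19 and WT, 0 of the 8 genes were called higher and 0 lower. Among the 12703 genes tested, 8.21% were higher and 4.73% lower by this threshold. The 8 differences ran from -0.12 for Map6 to 0.35 for Map1a, with a median of 0.10 against -0.03 over all genes tested. Among the 4831 protein-coding genes with a mean of 10 FPKM or more, 4.31% were higher and 6.93% lower. At 0.25 log2 units 2 of the 8 were higher, Map1a and Map4, and 0 lower, against 19.5% and 21.4% of all genes; at 1 log2 unit 0 were higher or lower, against 2.2% and 0.291%. Rescaling each library to the same sum (called TPM here) moved the median of all genes to 0.08, and put Map2 at 0.10 in place of -0.03.

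Between PS19 Zbp1+/- and PS19, 3 of the 8 genes were called higher, against 13.2% of the 12772 genes tested, and 0 lower, against 14.7%. The 3 were Map6 at 0.99, Map1a at 0.60 and Map1b at 0.55. Map2 at 0.45 and Map7d1 at 0.36 lay below the threshold, and Tppp at 0.09, Mapt at 0.01 and Map4 at -0.17 near 0. The median was 0.41, against 0.04 over all genes tested and 0.19 over the genes with a mean of 10 FPKM or more, of which 20.3% were called higher and 7.31% lower. At 0.25 log2 units 5 of the 8 were higher and 0 lower, against 29.9% and 27.1%; at 1 log2 unit 0 were higher or lower, against 2% and 5.16%. Other scalings of the libraries moved the median of all genes by over 0.1, to -0.20 after rescaling to TPM and to -0.12 per total reads. Map1a was then at 0.31 and 0.41 and Map1b at 0.27 and 0.36, so that only Map6 was called, at 0.72 and 0.81, while Mapt was at -0.28 and -0.18.

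Against WT, PS19 Zbp1+/- had 4 of the 8 genes called higher, beside 9.91% of 12436 genes tested, and 0 lower, against 9.59%. These were Map1a at 0.94, Map6 at 0.87, Map1b at 0.75 and Map7d1 at 0.51. Map2 was at 0.42, Tppp at 0.12, Map4 at 0.11 and Mapt at 0.05. Of genes with a mean of 10 FPKM or more, 12.4% were called higher and 6.73% lower. At 0.25 log2 units 5 of the 8 were higher and 0 lower, against 25.8% and 23.7% of all genes; at 1 log2 unit 0 were higher or lower, against 1.07% and 2.28%. After rescaling to TPM, Map1a, Map6 and Map1b were past the threshold, at 0.79, 0.72 and 0.60, whereas Map7d1 was at 0.35 (per total reads 0.36), Mapt at -0.10, Map4 at -0.05 and Tppp at -0.04. Each library enters 2 of the 3 comparisons, so they are not independent of each other.

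**Figure D2:**
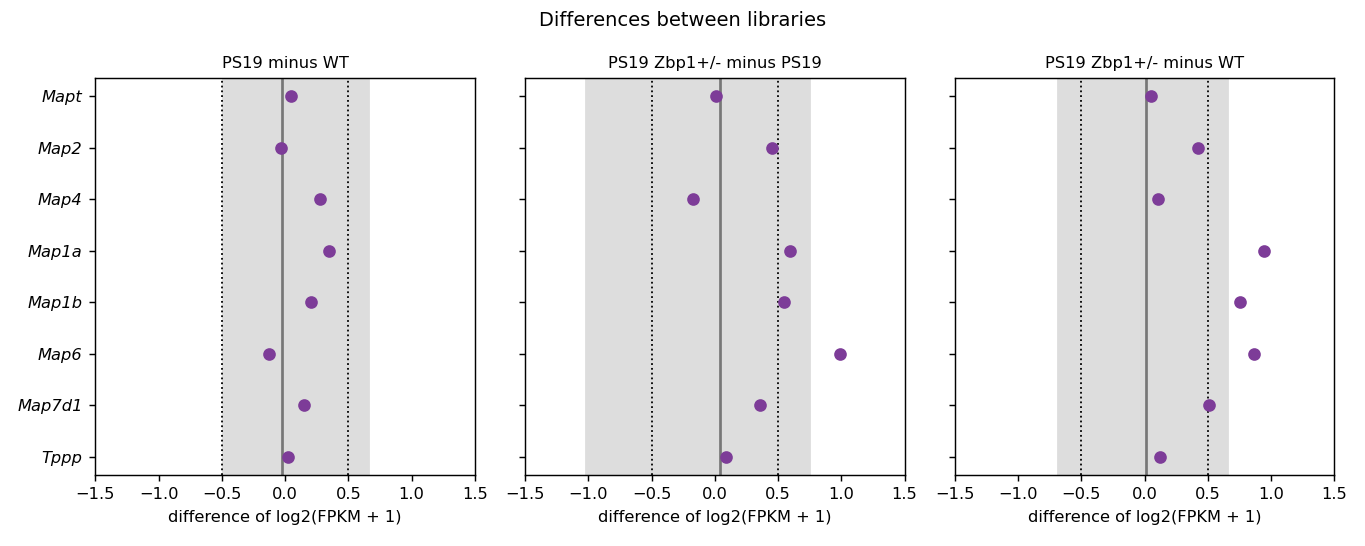
Difference of log2(FPKM + 1) (x axis) for each of the 8 genes (y axis) in the 3 comparisons; points are single differences, the grey band runs from the 5th to the 95th percentile of all genes tested, the grey line is their median, and dotted lines mark 0.5 log2 units. In PS19 Zbp1+/- minus PS19 only Map6, at 0.99, lies beyond the band, whose upper end is 0.75.

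Genes of like level, length and base composition moved too, and their medians are given beside the 8 genes. The median difference of all genes tested in PS19 Zbp1+/- minus PS19 went from -0.35 in the lowest of 10 bins of mean level to 0.32 in the highest, the bin that holds all of the 8 genes but Map6. It also went from -0.18 in the lowest of 10 bins of GC content to 0.31 in the highest, where Map7d1 lies with 62.5% GC. In PS19 minus WT the median went from 0.19 in the lowest to -0.23 in the highest bin of level, and from -0.25 in the shortest to 0.14 in the longest bin of gene length, which holds Map2, Map4, Map1a and Map1b. Relative to its level bin, Map6 was at 0.85 in PS19 Zbp1+/- minus PS19, Map1a at 0.28, Map1b at 0.23, Mapt at -0.31 and Map4 at -0.49. Relative to genes of like GC content and length, Map1b was at 0.60, Map2 at 0.50, Map1a at 0.31 and Map7d1 at -0.04.

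**Figure D3:**
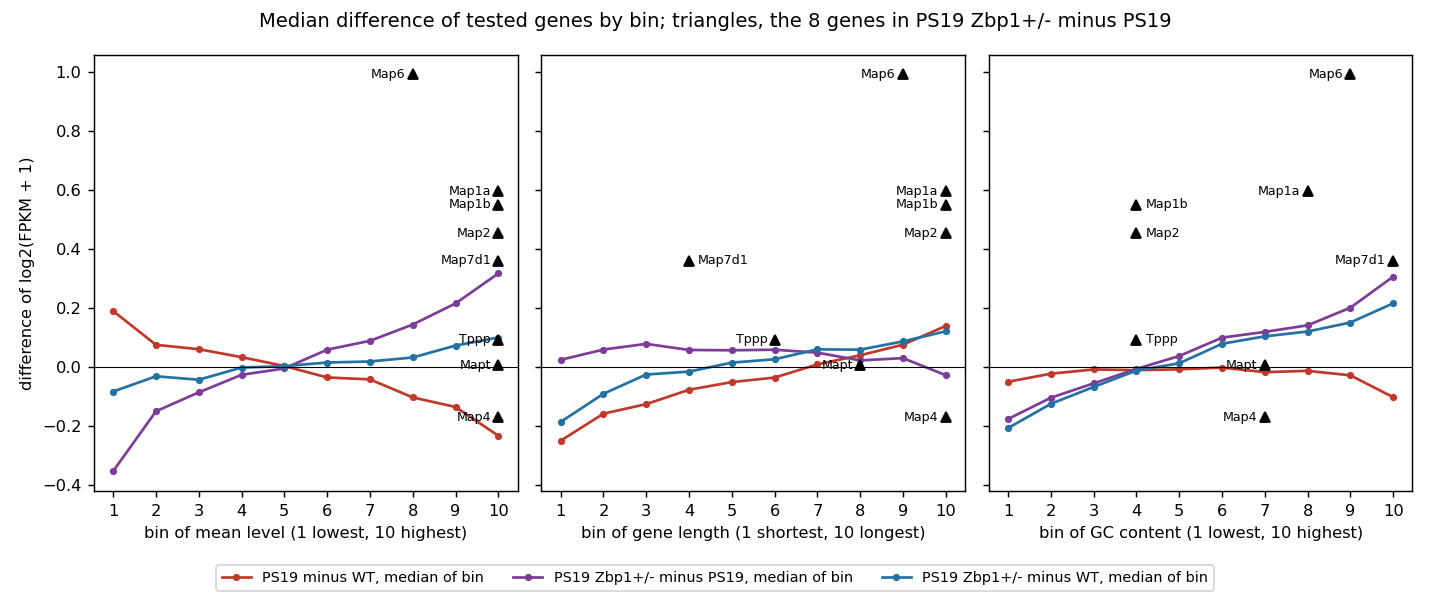
Median difference of log2(FPKM + 1) (y axis) of all genes tested in 10 bins of mean level, gene length and GC content (x axes), 1 line a comparison; triangles are the 8 genes in PS19 Zbp1+/- minus PS19. The purple line climbs from -0.35 to 0.32 with level, and Mapt at 0.01 lies under it.

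In the deposited scale Mapt varied by 0.05 log2 units over the 3 libraries. Likeness to it was measured as the Euclidean distance of log2(FPKM + 1), centred on each gene's mean over the 3 libraries, among 4823 other protein-coding genes at a mean of 10 FPKM or more. Nearest were Ptpn1, which encodes a tyrosine phosphatase, with 11.4, 11.9 and 11.9 FPKM, then Dirc2 and Ttyh1. A distance of 0.1 or less held for 325 genes. Map6 had the widest range of the 8, 0.99 log2 units, and nearest to it were Chd3, which encodes a chromatin remodeller, with 74.8, 67.5 and 136 FPKM, then Mboat7 and Rims4, with 32 genes within 0.1. With 3 libraries such a ranking describes these libraries only.

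Promoter windows (250 bases before to 50 after the start, RefSeq, GRCm38.p6) were on hand for 6 of the 8 genes and not for Mapt or Map6. Map1a and Map1b, both called higher in PS19 Zbp1+/- than in PS19 as deposited, are shown with Tppp, which was not called. After TPM or per total reads neither Map1a nor Map1b was called. The windows shown lie at chr2:121289352-121289651 (plus strand), chr13:99516553-99516852 (minus) and chr13:74009169-74009468 (plus). Capitals mark the GC box GGGCGG, the CCAAT box CCAAT and the TATA box TATAAA on either strand.
Map1a: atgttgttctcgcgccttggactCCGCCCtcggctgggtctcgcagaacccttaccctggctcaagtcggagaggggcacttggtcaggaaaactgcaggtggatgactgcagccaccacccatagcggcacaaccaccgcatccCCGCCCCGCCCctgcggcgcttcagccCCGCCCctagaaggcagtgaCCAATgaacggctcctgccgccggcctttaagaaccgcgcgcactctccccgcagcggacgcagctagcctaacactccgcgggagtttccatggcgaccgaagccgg
Map1b: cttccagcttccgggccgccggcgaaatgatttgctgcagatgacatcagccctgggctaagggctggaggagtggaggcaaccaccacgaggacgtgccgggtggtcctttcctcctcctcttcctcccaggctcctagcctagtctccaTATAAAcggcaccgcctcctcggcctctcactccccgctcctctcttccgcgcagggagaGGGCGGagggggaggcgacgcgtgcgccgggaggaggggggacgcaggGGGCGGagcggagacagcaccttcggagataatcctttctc
Tppp: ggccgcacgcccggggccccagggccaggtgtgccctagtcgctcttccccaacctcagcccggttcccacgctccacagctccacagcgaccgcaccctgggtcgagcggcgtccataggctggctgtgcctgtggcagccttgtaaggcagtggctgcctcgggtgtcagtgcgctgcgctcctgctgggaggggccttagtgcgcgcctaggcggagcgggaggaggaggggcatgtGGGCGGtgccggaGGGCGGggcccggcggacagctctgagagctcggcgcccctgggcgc
The Map1a window held 4 GC boxes and 1 CCAAT box, that of Map1b 2 GC boxes and 1 TATA box, and that of Tppp 2 GC boxes. Their GC contents were 65.7%, 65.7% and 73.3%, against a median of 52.7% over 32851 windows. Over all windows 35.7% held a GC box, 37.4% a CCAAT box and 13.6% a TATA box. Among other genes not called in PS19 Zbp1+/- minus PS19 as deposited, the Map2 window held 5 GC boxes and each Map7d1 window 4. The Map4 window at chr9:109931524-109931823 held 3 GC and 2 CCAAT boxes, and that at chr9:110051771-110052070 held 0 and 1. Whether these boxes relate to the calls was not tested.

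Other genes of the microtubule system were read from 9 lists with 134 genes. In PS19 minus WT 4 of 122 genes tested were called higher (3.28%) and 7 lower (5.74%). Of all genes tested 8.21% were higher and 4.73% lower there, and of genes with a mean of 10 FPKM or more 4.31% and 6.93%. For PS19 Zbp1+/- minus PS19 29 of 124 were called higher (23.4%) and 10 lower (8.06%), with a median of 0.22. Beside them, 13.2% of all genes tested were higher and 14.7% lower. Of genes with a mean of 10 FPKM or more these shares were 20.3% and 7.31%, with a median of 0.19. The lists lie near the latter, but they also hold genes of lower level, so the 2 sets are not matched for level. For PS19 Zbp1+/- minus WT 21 of 123 were called higher (17.1%) and 7 lower (5.69%). The shares were 9.91% and 9.59% of all genes tested, and 12.4% and 6.73% of genes with a mean of 10 FPKM or more. These splits moved with the scaling, and so did the shares of all genes. After rescaling to TPM the counts were, in the same order, 11 higher and 2 lower, 9 and 20 (median -0.02), and 10 and 11. Of all genes, 11.4% were then higher and 2.47% lower, 5.07% and 25.7% (median -0.20), and 5.52% and 15.0%. Per total reads the counts were 5 and 5, 15 and 18, and 10 and 11. The shares of all genes were then 8.95% and 4.01%, 6.98% and 20.9%, and 5.59% and 15.0%.

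Alpha and beta tubulins, the building blocks of the polymer, had the highest list median in PS19 Zbp1+/- minus PS19, 0.69, with 7 of 12 tested called higher and 0 lower; per total reads it was 0.52 with 7 and 0, and after TPM 0.44 with 4 and 0. In the order WT, PS19, PS19 Zbp1+/-, Tuba1b had 197, 137 and 282 FPKM, Tubb5 122, 89.0 and 177, and Tuba4a 95.3, 66.9 and 122. In each the PS19 library was lowest. Between PS19 and WT 3 of 12 tubulins were called lower, led by Tubb2a at -0.55, and the list median was -0.30; per total reads 1 was called lower, and after TPM 0, at a median of -0.18. Tubulin genes are close paralogs, so the split of reads among them is uncertain.

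Stathmins, which sequester tubulin dimers, were divided: Stmn2 had 53.4, 35.6 and 56.9 FPKM in WT, PS19 and PS19 Zbp1+/- and Stmn3 421, 285 and 436, both lowest in PS19, whereas Stmn4 had 57.2, 62.6 and 40.5. Of the 24 kinesin and dynein genes tested, 6 were called higher and 2 lower in PS19 Zbp1+/- against PS19. Kif21b went from 6.44 to 13.9 FPKM and the axonal motor Kif5a from 197 to 339, while Kif13b went from 6.40 to 3.28. After TPM 1 motor gene was called higher and 4 lower, and per total reads 2 and 4. Among 17 proteins of the plus and minus ends 3 were called higher and 0 lower, led by Camsap3, a minus-end protein, at 0.78 (4.39 to 8.26 FPKM), against 1 higher and 3 lower both after TPM and per total reads.

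Relatives of the 8 genes were divided as well. Of 27 other structural microtubule-associated protein genes tested, 4 were called higher and 4 lower in PS19 Zbp1+/- against PS19, 2 and 8 after TPM, and 4 and 6 per total reads. Tppp3, a paralog of Tppp, had 23.5, 27.1 and 12.1 FPKM in WT, PS19 and PS19 Zbp1+/-, a difference of -1.10 to PS19. Map7, of the same family as Map7d1, was at -1.06 (16.4 to 7.33 FPKM), and Crmp1, a collapsin response mediator, at 0.88 (29.4 to 54.9 FPKM). Between PS19 and WT the giant spectraplakins Dst and Macf1 were the 2 genes of this list called higher, at 0.78 and 0.53. Vash1, which removes the carboxyl-terminal tyrosine of alpha tubulin, stood at 6.71, 11.1 and 17.8 FPKM and its partner Svbp at 8.11, 8.69 and 4.69. Of 22 tubulin-modifying genes 3 were called higher and 1 lower in PS19 Zbp1+/- against PS19, and among 8 gamma tubulin complex genes 1 and 1 (Tubg2 at 0.64, Nedd1 at -0.95). Both after TPM and per total reads these counts were 1 and 2 for the modifying genes and 0 and 1 for the gamma tubulin complex. Of 5 genes related to the MAP1 light chain 3 of autophagy, 1 was called higher, Gabarapl1 at 0.53, and 0 after TPM or per total reads.

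**Figure D4:**
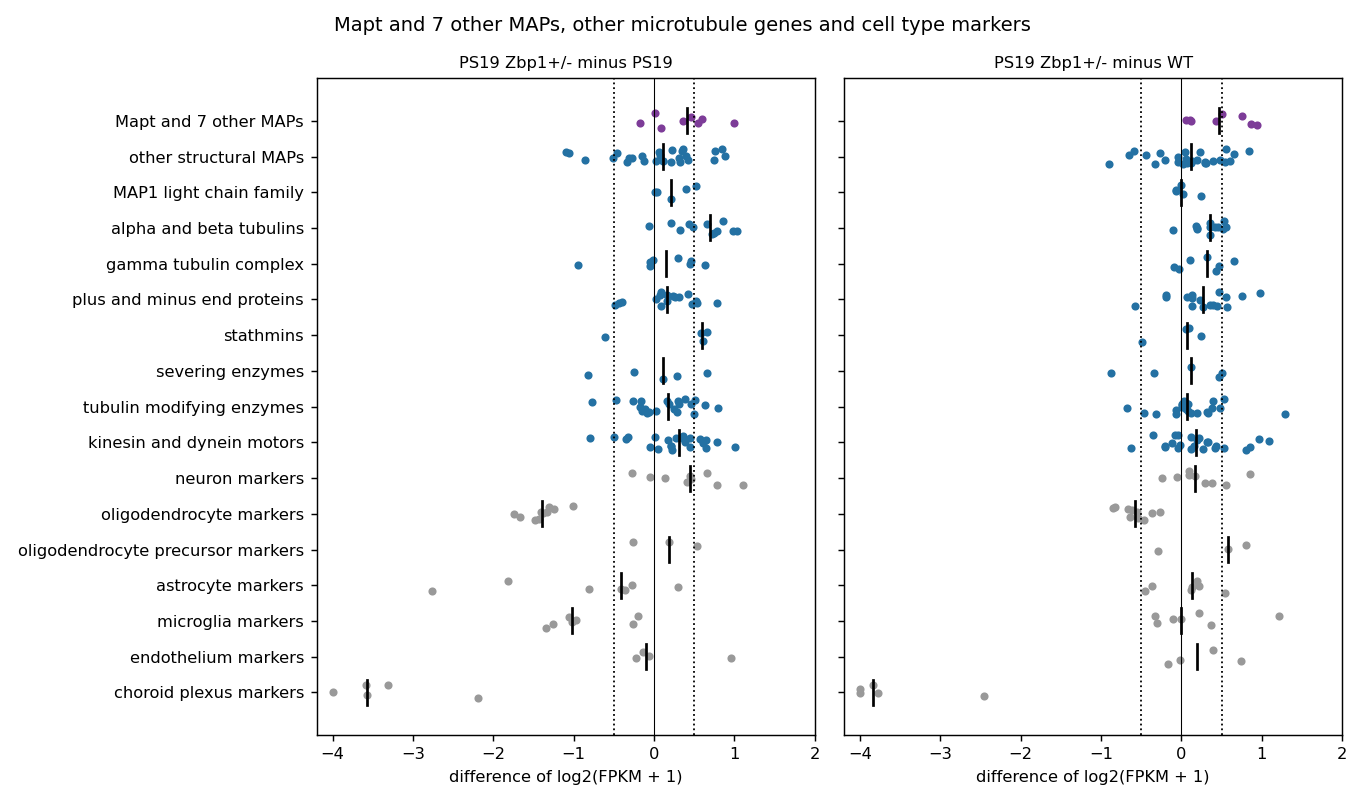
Difference of log2(FPKM + 1) (x axis) for the 8 genes (purple), the 9 lists of other microtubule genes (blue) and 7 lists of cell type markers (grey) in both comparisons of PS19 Zbp1+/-; points are genes, black bars list medians, dotted lines 0.5 log2 units, and values under -4 are drawn at -4. The tubulin median is 0.69 in PS19 Zbp1+/- minus PS19, and every oligodendrocyte marker lies below every one of the 8 genes.

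Cell type markers moved between the libraries. In bulk RNA fewer cells of a type, less RNA per cell and a difference in the tissue dissected cannot be told apart. The 9 neuron markers summed to 1055, 894 and 1324 FPKM in WT, PS19 and PS19 Zbp1+/-. Their median difference in PS19 Zbp1+/- minus PS19 was 0.45, with 3 called higher and 0 lower and a range from -0.28 to 1.10. Those called were Slc17a7 (1.10), Tubb3 (0.79) and Stmn2 (0.66), of which Tubb3 and Stmn2 also stand in the tubulin and stathmin lists. After TPM the median was 0.17, with 2 higher and 1 lower, and per total reads 0.26, with 2 and 0. Mapt, at 0.01, lay below 7 of the 9 and Tppp below 7, Map2 at 0.45 below 4, Map1a and Map1b below 3 each, and Map6 below 1, Slc17a7. In PS19 minus WT the neuron marker median was -0.23 and all of the 8 genes but Map6 lay above at least 7 of the 9 markers.

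The 10 oligodendrocyte markers summed to 922, 1649 and 599 FPKM. All 10 were called higher in PS19 than in WT (median 0.81) and all 10 lower in PS19 Zbp1+/- than in PS19 (median -1.39). Tppp did not follow them, with 80.9, 82.5 and 87.9 FPKM. The astrocyte markers summed to 551, 1402 and 677 FPKM, of which Gfap made up 98.4, 768 and 112. Of 7 astrocyte markers 4 were called higher in PS19 than in WT (median 0.54) and 3 lower in PS19 Zbp1+/- than in PS19 (median -0.41), while Aldoc went from 239 in PS19 to 295. The microglia markers summed to 77.6, 194 and 91.0 FPKM, with 5 of 7 called higher in PS19 than in WT (median 1.25) and 5 lower in PS19 Zbp1+/- than in PS19 (median -1.02). After TPM 6 astrocyte and 6 microglia markers were called lower in PS19 Zbp1+/- than in PS19 (medians -0.69 and -1.24). Per total reads 5 and 5 were (medians -0.60 and -1.15). The choroid plexus markers summed to 3109, 1899 and 10.4 FPKM, of which Ttr made up 3036, 1842 and 7.05. All 5 of them were called lower in PS19 Zbp1+/- than in PS19 (median -3.57). Whether the dissections took the same tissue was not tested, and with 1 library a genotype it cannot be told apart from genotype. No marker of these lists was at 0 in any library. The part of these shifts in the differences of the 8 genes was not tested.

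Of 15 genes that overlap one of the 8 on either strand, 2 had at least 50 reads in a library. Ppip5k1, which shares 272 bases with the end of Map1a on the opposite strand, had 1832, 1885 and 2463 reads, against 17812, 22769 and 31588 for Map1a. Gm42433, inside Map4 on the same strand, had 166, 130 and 124 reads, against 10516, 12823 and 10405 for Map4. The other 13 had at most 28 reads. Whether strand was used in counting is not given in the sources used here.

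**Figure D5:**
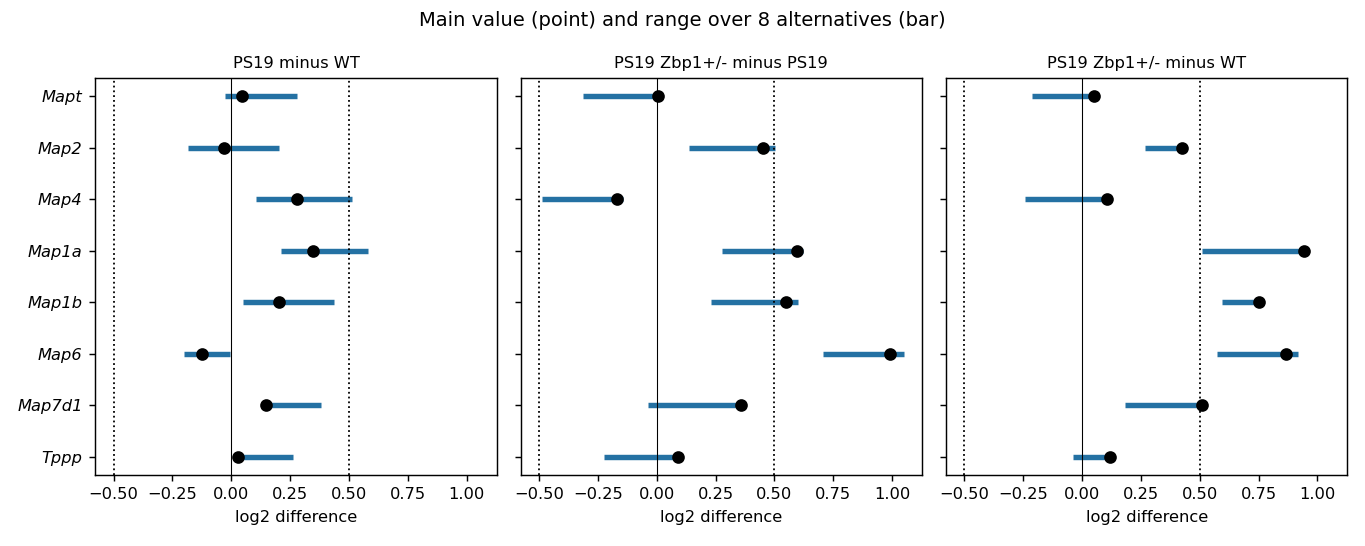
Log2 difference (x axis) of each of the 8 genes (y axis) in the 3 comparisons as first computed (points) and its range over 8 other scalings, pseudocounts or corrections (bars); dotted lines mark 0.5 log2 units. Map6 stays between 0.71 and 1.05 in PS19 Zbp1+/- minus PS19, and Mapt runs from -0.31 to 0.01.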

How the data were processed

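Total hippocampal RNA was sequenced in 3 libraries. The submitters' processing notes name Trim Galore 0.6.5, STAR 2.5.3a, featureCounts 2.0.4 and the build mm39. The authors deposited 1 table of FPKM values. Its gene positions equal those of GENCODE M21 (GRCm38) for 98.3% of 54409 shared gene IDs, so coordinates are GRCm38, not mm39. FPKM times gene length was a whole multiple of 1 step (within 0.01 read) in 100% of values above 0, which gave reads and the library sizes (15826984 to 17287957) behind ratios. Ratios have exact (Clopper-Pearson) 95% intervals; duplicate reads of 1 molecule cannot be told apart, so they cover counting error only. With 1 library a group no test was run. Differences used a pseudocount of 1 and a filter of FPKM 1 in either library.

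The 8 genes and all lists were chosen with earlier results of these data known. Named in the lists were up to 3 genes with the largest absolute difference in a comparison. The procedure was tested on simulated data that held counting error only, with no spread between animals and no trend with level or GC content. Near copies were sought with BLAST 2.17.0, and the rest used Python 3.11.15, pandas 2.3.3 and scipy 1.17.1. Alternatives were 2 pseudocounts, 3 scalings, 2 thresholds, 2 filters and corrections for level, length and, added after the data were seen, GC content. Gene lists under other scalings were also added then. Some values and a sequence are not reported here.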

Additional observations from a re-analysis of the deposited data

How the results depend on the processing

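No paired analysis was possible because each genotype has 1 library; for the same reason no replicate could be left out. In PS19 minus WT the count of genes called higher, 0, became 2 relative to the level bin (Map1a and Map4) and 2 at a threshold of 0.25, where 19.5% of all genes were higher. In PS19 Zbp1+/- minus PS19 the count of 3 became 1 after rescaling to TPM, 1 per total reads, 1 relative to the level bin, 5 at 0.25 and 0 at a threshold of 1. It stayed 3 relative to GC content and length, with Map2 in place of Map1a. In PS19 Zbp1+/- minus WT the count of 4 became 0 at a threshold of 1, and was 3 to 5 otherwise. No gene was called lower under any of the 12 alternatives, and no called difference changed sign. Mapt, never called, changed sign in 6 of 8 alternatives for PS19 Zbp1+/- minus PS19, down to -0.31. In that comparison the share of all genes called was 13.2% higher and 14.7% lower as deposited, 5.07% and 25.7% after TPM and 6.98% and 20.9% per total reads; in PS19 Zbp1+/- minus WT it was 9.91% and 9.59%, 5.52% and 15.0%, and 5.59% and 15.0%.

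With 1623 reads or more behind each level, counting intervals are narrow, and the spread between animals is unknown.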
